A study of Mus musculus with 29 samples.

Results

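Ribbon and active zone scaffolds are the proteins that build the site of transmitter release in photoreceptors and bipolar cells, and 10 genes that encode them were followed here: Ctbp1, Ctbp2, Bsn, Pclo, Rims1, Rims2, Rims3, Erc1, Erc2 and Unc13b. They were listed by name, and all 10 were found among the 24062 genes of the RNA-seq table. All 10 also passed the filter on low values that left 14024 genes for testing.

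Photoreceptors and bipolar cells release glutamate continuously, and both do so at ribbon synapses, where an electron-dense plate holds a row of vesicles above the release site. The plate is built mainly of RIBEYE, a product of the Ctbp2 gene, and is held to the membrane through the giant scaffold bassoon. At the membrane, RIM, ELKS and Munc13 proteins hold calcium channels next to docked vesicles and make the vesicles ready to fuse, as they do at conventional synapses.

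The study purified populations of mouse retinal neurons by fluorescence-activated cell sorting and measured RNA by RNA-seq in 15 libraries, 3 for each of 5 populations, and open chromatin by ATAC-seq in 12 libraries, 2 for each of 6 populations. Pan-bipolar cells (pan-BC) are all bipolar cells, sorted by GFP from mice with 1 copy of a GFP cassette in the Otx2 gene (Otx2-GFP+/-). ON bipolar cells (ON-BC), which respond to light onset, and OFF bipolar cells (OFF-BC), which respond to light offset, came from Otx2-GFP+/-; Grm6-YFP+/+ mice, in which a Grm6 promoter drives YFP in ON-BC. The ATAC-seq pan-BC libraries are labelled with that double genotype as well. All bipolar populations therefore carry the Otx2-GFP allele, in mice of 42 to 48 days. ON-BC were sorted once and OFF-BC a second time, and each of these libraries pooled the retinas of more than 1 mouse. The study estimates that rod bipolar cells make up the larger part of its ON-BC, the rest being ON cone bipolar cells. Response to light onset therefore cannot be told apart from rod bipolar identity in ON-BC against OFF-BC. The study also reports that a rare ON type was left out of both sorts. Rods came from Nrl-eGFP mice of 56 days, whose GFP is driven by the promoter of Nrl, the rod-determining transcription factor. Blue cones were photoreceptors of Nrl-eGFP;NrlKO mice of 56 days, in which cells that would have become rods take on the features of S-opsin cones. Green cones, sorted from Opn1mw-GFP mice of 56 days, were measured by ATAC-seq only. The photoreceptor libraries were taken over from earlier work of these authors, so cell class, study and age cannot be told apart in any comparison of bipolar cells with photoreceptors, and Nrl deletion cannot be told apart from cone identity in the blue cones.

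RNA-seq libraries held 12329548 to 26266746 counted reads and ATAC-seq libraries 4176776 to 12345845. The labelled cell types carried their markers: the median summed level of 10 bipolar markers was 155788 normalized counts in pan-BC, against 1654 for rods and 28980 for blue cones, and Nrl was 11476 to 16599 in rods and 486 to 764 in the Nrl-deficient photoreceptors. Traces of other cells were measurable in each sort. Gnat1, the rod transducin gene, was at 0.915 to 1.1% of its rod mean in pan-BC, at 0.724 to 1.05% in ON-BC and at 0.0537 to 0.0887% in OFF-BC. Opn1sw, S-cone opsin, was at 2.3 to 4.15% of its blue cone mean in pan-BC, and OFF-BC replicate 3 stood apart at 4.57% against 0.366% and 0.353% in the other two OFF-BC libraries. Another cone marker, Pde6c, was lower, at 0.169 to 0.322% of its blue cone mean in pan-BC. In OFF-BC replicates 1 to 3 Pde6c was at 0.108, 0.183 and 1.22%. Grm6, the glutamate receptor gene of ON-BC, was at 0.491 to 1.4% of its pan-BC mean in rods and at 0.844 to 2.15% in blue cones. Amacrine markers summed to 440.5 to 465 normalized counts in pan-BC, 226 to 351 for ON-BC, 734 to 940 for OFF-BC, 2068 to 2427 for rods (Slc32a1 at 0) and 1357 to 1594 in blue cones (Gad2 and Slc32a1 at 0). Ganglion cell markers summed to at most 584 in any library, horizontal cell markers to at most 119 and endothelial markers to at most 194. Of the ganglion cell markers, Slc17a6 was at 0 in OFF-BC and rods, and Thy1 at 0 in rods and blue cones. Of the others, Lhx1 and Onecut1 were at 0 in rods, Cldn5 in ON-BC and Cdh5 in OFF-BC. Microglial markers summed to 72.8 to 174 in blue cones and to at most 41.9 in the other populations, and Muller glia markers to 807 to 1984 in all 5 populations.

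Levels are normalized counts, which are read counts divided by 1 size factor for each library. Differences are log2 fold changes of normalized count + 1, with a standard error (SE), from limma. A gene was called where limma placed the difference beyond 2-fold at a Benjamini-Hochberg adjusted p below 0.05, and limma adjusted p values against no change at all are given beside some values. These p values measure only the spread between libraries of 1 population. For each gene or region that spread was fitted over all populations together, including those near 0 reads. Its SE is therefore the same in every comparison.

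Rims1 and Erc1 RNA was more than 2-fold higher in pan-BC than in both photoreceptor populations, while the ribbon gene Ctbp2 exceeded its rod level by less than 2-fold. In pan-BC against rods, 3 members were called higher (Ctbp1, Rims1 and Erc1) and 0 lower, where 27.8% of all genes tested were called higher and 15.8% lower, so that the 3 of 10 lie near the background. In pan-BC against blue cones, 4 members were called higher (Bsn, Pclo, Rims1 and Erc1) and 0 lower, against 22.7% and 13.7% of all genes. Between ON-BC and OFF-BC 0 members were called by limma in either direction, where 2.95% of all genes were called higher in ON-BC and 3.6% lower. At an adjusted p below 0.05 against no change, 4 members differed between ON-BC and OFF-BC, where the same test called 27% of all genes, and edgeR called 1 beyond 2-fold, where it called 8.74% of all genes. In rods against blue cones 0 members were called higher and 1 lower (Erc1), against 4.63% and 11.3% of all genes. The median log2 fold change of the 10 members was 0.78 in pan-BC against rods, 1.31 in pan-BC against blue cones, -0.11 in ON-BC against OFF-BC and 0.56 in rods against blue cones, and the median over all genes was 0.21, 0.16, -0.015 and -0.0047 in the same order. With libraries scaled by their totals alone, the median of all genes moved to 0.55 in pan-BC against rods and to 0.44 in pan-BC against blue cones, and the share of higher calls among all calls in pan-BC against rods moved from 63.8% to 74.0%. In these bulk samples, fewer cells of a type and less RNA per cell cannot be told apart. The comparisons that share the pan-BC, rod or blue cone libraries are not independent of each other.

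**Figure D1:**
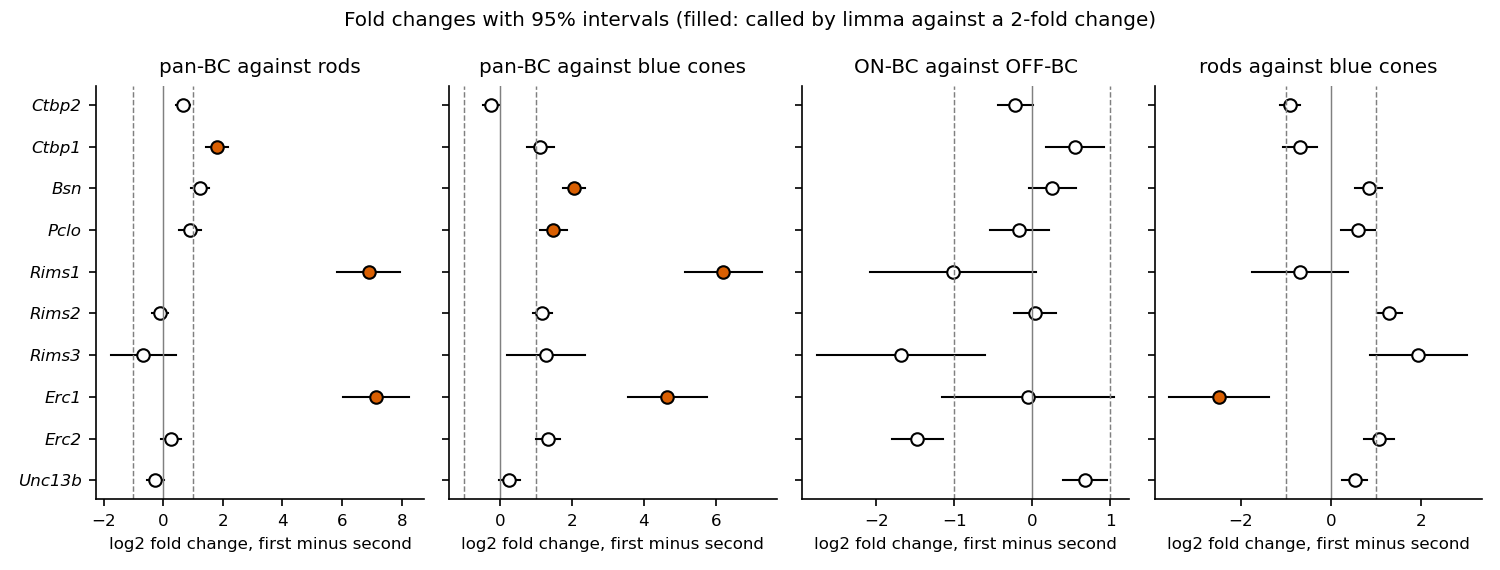
Log2 fold change (first population minus second) of each of the 10 scaffold genes in the 4 comparisons, with 95% intervals; dashed lines mark a 2-fold difference and filled points the calls. Rims1 and Erc1 lie farthest to the right in both comparisons of pan-BC with photoreceptors, at 6.89 and 7.14 against rods and 6.21 and 4.65 against blue cones.

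Ctbp2 (chr7:132987011-133123483, minus strand) encodes both CtBP2, a transcriptional co-repressor, and RIBEYE, which starts from an internal promoter and joins a ribbon-specific amino-terminal domain to nearly the whole of CtBP2. Reads were counted for the gene as a whole, so the RNA levels below sum over both proteins. Normalized counts of Ctbp2 were 8963, 8414 and 9252 in pan-BC replicates 1 to 3, 9503, 8893 and 8734 in ON-BC, and 12075, 9647 and 9982 in OFF-BC. They were 5592, 5770.2 and 5458 in rods and 10453, 10609 and 10432 in blue cones. Every rod library lay below every other library, and the bipolar and blue cone libraries lay between 8414 and 12075. Pan-BC exceeded rods by a log2 fold change of 0.66 (SE 0.11), which was not beyond 2-fold (limma adjusted p = 1) and differed from no change (limma adjusted p = 2.14e-05). Rods were below blue cones by -0.91 (SE 0.11, limma adjusted p = 1 against 2-fold and 1.59e-06 against no change). Pan-BC against blue cones gave -0.24 (SE 0.11), a direction that turned to 0.04 with libraries scaled by their totals alone. ON-BC against OFF-BC gave -0.22 (SE 0.11), and the 3 OFF-BC libraries lay above 9503, the highest ON-BC library.

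**Figure D2:**
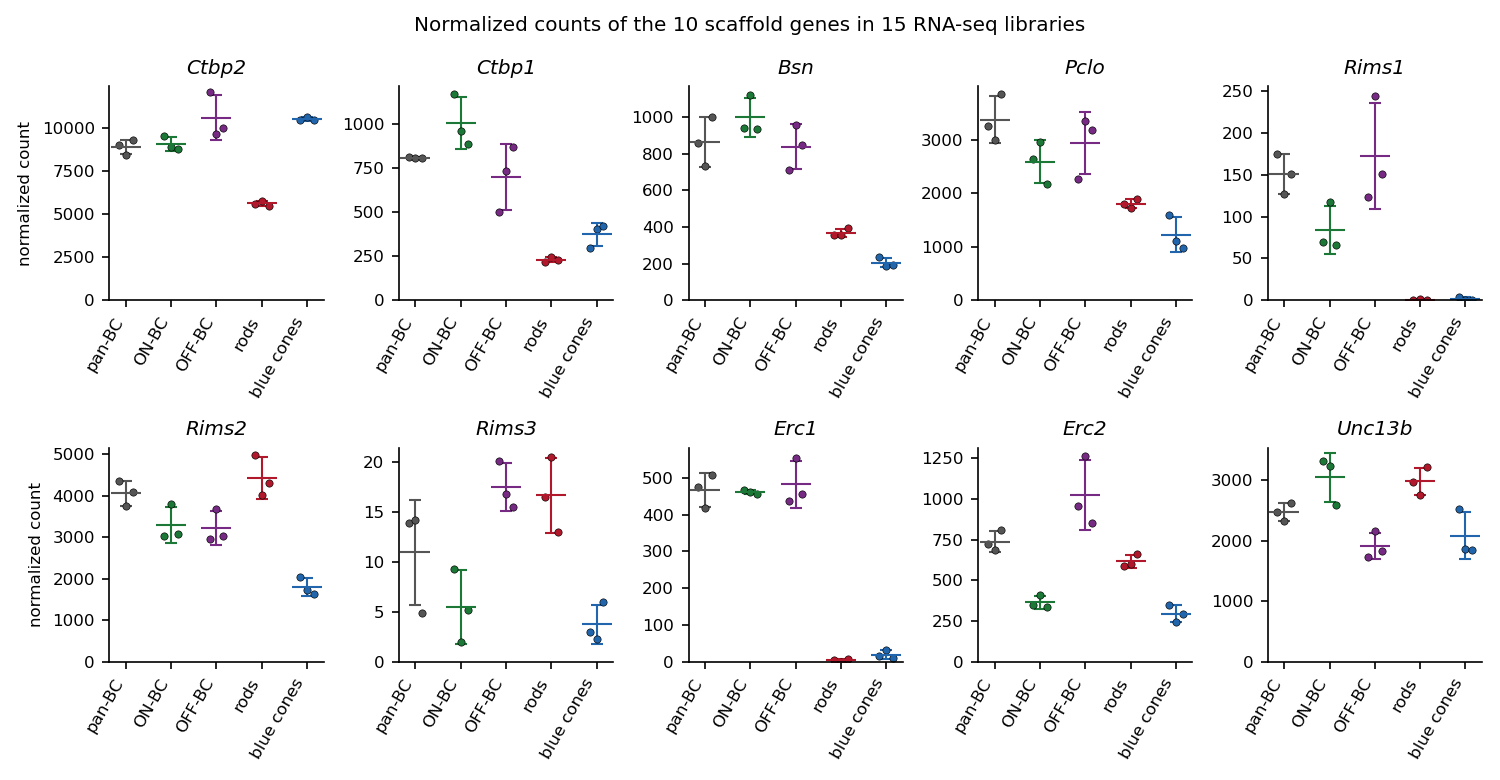
Normalized count (linear axis from 0, own scale in each panel) of the 10 scaffold genes in the 15 RNA-seq libraries by population; dots are libraries, the horizontal bar is the mean of 3 and the whiskers are 1 SD, cut at 0. Ctbp2 is lowest in rods, while Rims1 and Erc1 are near 0 in rods and blue cones and between 65.7 and 555 in all 9 bipolar libraries.

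RefSeq (GRCm38.p6) gives Ctbp2 3 starts. The first in genome order, at position 133015247, begins the transcript of 9 exons that encodes the 988-residue product, RIBEYE. The others, at 133081860 and 133123483, begin transcripts for products of 420 and 445 residues. The 250 bases upstream of the first and second starts are shown because the first is the promoter of the ribbon protein and the second is the nearest alternative. They run 5′ to 3′ along the gene, at chr7:133015248-133015497 and chr7:133081861-133082110 on the minus strand, and capitals mark the one match to the 4 motifs searched, a TAATCC read on the other strand 121 bases upstream of the RIBEYE start.
RIBEYE promoter: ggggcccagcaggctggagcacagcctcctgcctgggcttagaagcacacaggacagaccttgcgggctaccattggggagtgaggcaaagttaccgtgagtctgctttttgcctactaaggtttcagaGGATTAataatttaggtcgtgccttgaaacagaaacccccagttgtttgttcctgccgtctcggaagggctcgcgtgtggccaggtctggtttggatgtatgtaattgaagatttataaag
Second Ctbp2 promoter: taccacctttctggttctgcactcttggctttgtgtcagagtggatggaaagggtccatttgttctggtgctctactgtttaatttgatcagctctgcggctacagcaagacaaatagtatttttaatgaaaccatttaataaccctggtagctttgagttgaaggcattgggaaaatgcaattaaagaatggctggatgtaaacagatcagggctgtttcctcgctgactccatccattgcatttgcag

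Open chromatin, which unlike the RNA can be read by position along the gene, was strongest at the RIBEYE promoter and was higher there in photoreceptors than in bipolar cells. The region centred 389 bp upstream of the RIBEYE start (chr7:133015537-133015736) held 124 and 125 normalized reads in pan-BC, whereas ON-BC had 103 and 116 and OFF-BC 171 and 165. Rods had 518 and 564, blue cones 540.1 and 468, and green cones 429.5 and 409.8. The highest bipolar library was at 171 and the lowest photoreceptor library at 409.8. The log2 fold change was -2.11 (SE 0.16, limma adjusted p = 9.38e-06) in pan-BC against rods and -2.01 (SE 0.16, limma adjusted p = 6.30e-05) in pan-BC against blue cones. The RNA of the gene differed from rods in the opposite direction. ON-BC and OFF-BC differed there by -0.62 (SE 0.16), which was not called.

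The second start had no region in the promoter window of 1000 bp before to 100 bp after it, so accessibility at that start itself was not measured. Its nearest region, 2448 bp upstream (chr7:133084209-133084408), held 13.6 and 3.42 reads in pan-BC, 65.4 and 104 in rods and 54.4 and 65.8 in blue cones. Pan-BC was lower than rods by -3.38 (SE 0.59, limma adjusted p = 0.00115) and lower than blue cones by -2.92 (SE 0.59, limma adjusted p = 0.00807), a call that was lost without pan-BC replicate 2 (adjusted p = 0.156) or blue cone replicate 2 (adjusted p = 0.0577). At the third start 3 promoter regions were not called in any of the 4 comparisons, and the nearest of them, 83 bp upstream, held 14.4 and 18.8 reads in pan-BC, 46.7 and 32.5 in rods and 50.5 and 31.8 in blue cones.

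Away from the starts, 2 regions of Ctbp2 separated ON-BC from OFF-BC, and both are named here after their values were seen. The region 6755 bp upstream of the RIBEYE start (chr7:133021903-133022102) held 41.8 and 73.2 reads in ON-BC and 1.35 and 5.84 in OFF-BC. It held 36.0 and 29.1 in pan-BC and at most 2.59 in any rod or blue cone library. It was called higher in ON-BC (3.81, SE 0.73, limma adjusted p = 0.0135), a call lost without OFF-BC replicate 1 (3.04) or ON-BC replicate 2 (3.42). The call was also lost in a fit of ON-BC and OFF-BC alone, without the replicate number as a block (limma adjusted p = 0.0617). The same region was called higher in pan-BC than in rods (4.03, SE 0.73, limma adjusted p = 0.000924). The region 32144 bp upstream of the RIBEYE start held 2.99 and 0 reads in ON-BC, whereas OFF-BC had 16.2 and 15.6, rods 9.35 and 14.9, and blue cones 58.3 and 47.7. It was called lower in ON-BC than in OFF-BC (-3.08, SE 0.62, limma adjusted p = 0.0295), but not by DESeq2 (adjusted p = 0.363) nor without either OFF-BC library (adjusted p = 0.134 and 0.107). In a fit of ON-BC and OFF-BC alone it was not called either, with the replicate number as a block (limma adjusted p = 0.195) or without it (limma adjusted p = 0.231). The sequences of the regions 389 and 6755 bp upstream are shown on the plus strand of the genome, as the one that separated photoreceptors from bipolar cells at the RIBEYE start and one that separated ON-BC from OFF-BC, with matches to the motifs in capitals.
Region 389 bp upstream of the RIBEYE start: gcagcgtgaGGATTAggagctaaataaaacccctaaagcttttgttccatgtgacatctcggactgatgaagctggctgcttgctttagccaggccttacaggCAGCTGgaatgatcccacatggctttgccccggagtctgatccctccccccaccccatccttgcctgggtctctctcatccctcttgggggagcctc
Region 6755 bp upstream of the RIBEYE start: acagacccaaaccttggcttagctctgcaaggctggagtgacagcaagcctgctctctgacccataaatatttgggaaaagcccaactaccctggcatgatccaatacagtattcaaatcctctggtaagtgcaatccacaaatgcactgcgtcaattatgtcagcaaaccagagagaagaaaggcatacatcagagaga
The first holds 1 TAATCC (read as GGATTA on this strand) and 1 CAGCTG, and the second holds none of the 4 motifs.

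**Figure D3:**
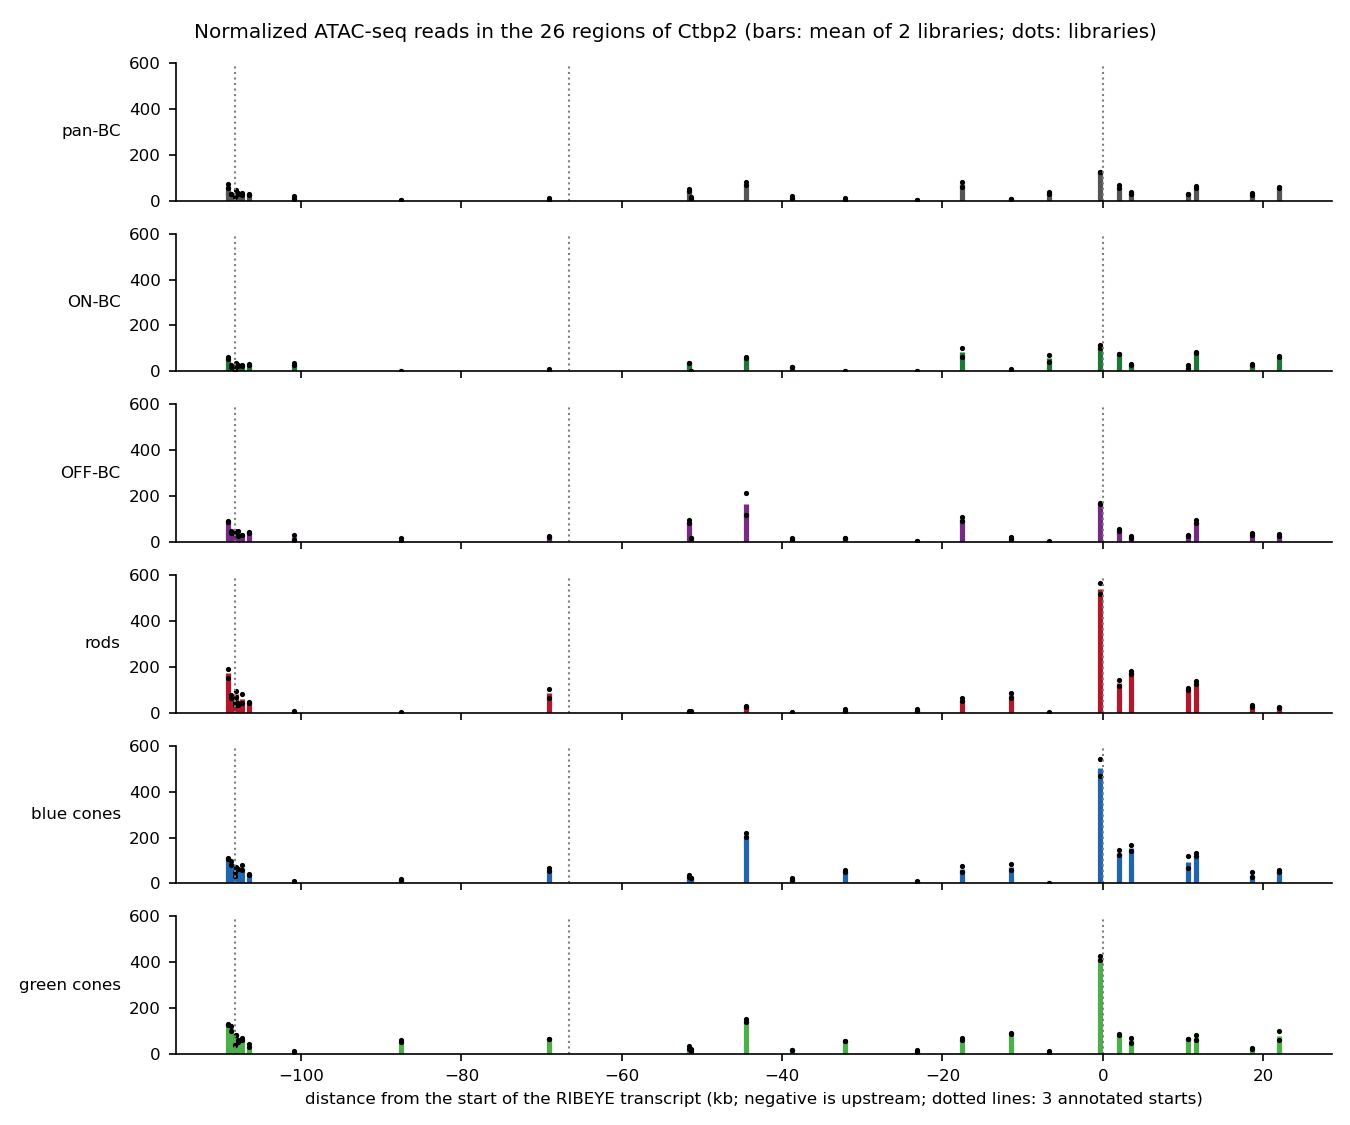
Normalized ATAC-seq reads (0 to 600 on every axis) in the 26 regions nearest to a Ctbp2 start, against distance in kb from the RIBEYE start along the gene; bars are the mean of 2 libraries, dots the libraries and dotted lines the 3 annotated starts. The bar next to the RIBEYE start reaches 541 in rods and 504 in blue cones and 124 in pan-BC.

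In all, 26 regions lay nearest to a Ctbp2 start. In pan-BC against rods 3 were called higher and 5 lower, and in pan-BC against blue cones 1 higher and 5 lower. The background over all 108448 regions tested was 40.3% higher and 11.2% lower in the first comparison and 28.8% and 7.13% in the second. Without pan-BC replicate 2 the 5 lower calls against blue cones fell to 3, and without pan-BC replicate 1 the 1 higher call fell to 0. In rods against blue cones 0 were called higher and 4 lower, against 1.46% and 8.56% of all regions, and the 4 fell to 2 without rod replicate 2 or blue cone replicate 2. One of those 4, 27855 bp downstream of the second start, held 1.56 and 0 reads in rods and 15.5 and 23.1 in blue cones (-3.64, SE 0.60, limma adjusted p = 0.00371), a call lost with a pseudocount of 8 (adjusted p = 0.324).

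Ctbp1 (chr5:33247723-33275004, minus strand) encodes the sister co-repressor CtBP1, whose long form is also found at synapses and binds bassoon and piccolo. Its normalized counts were 812, 805 and 805.1 in pan-BC, 1169, 959 and 888 in ON-BC, and 501, 732 and 868 in OFF-BC. They were 215, 247 and 230.2 in rods and 299, 402 and 420.4 in blue cones. All 9 bipolar libraries lay above all 6 photoreceptor libraries. Pan-BC was higher than rods by 1.80 (SE 0.18, limma adjusted p = 0.000540), while the difference from blue cones of 1.12 (SE 0.18) was not beyond 2-fold (limma adjusted p = 0.523) and differed from no change (2.31e-05). ON-BC exceeded OFF-BC by 0.55 (SE 0.18), not beyond 2-fold (limma adjusted p = 1) and at a limma adjusted p of 0.0299 against no change. The promoter region 136 bp upstream of the start held 565 and 461 reads in pan-BC, 509 and 507 in rods and 515 and 486 in blue cones, with a log2 fold change of 0.01 (SE 0.13) against rods. The RNA therefore differed between pan-BC and rods where the accessibility of this promoter region did not differ beyond its spread. Of the 5 regions nearest to Ctbp1, 2 were called higher in pan-BC than in each of rods and blue cones, where 40.3% and 28.8% of all regions were, although only 1 was called against blue cones without pan-BC replicate 1 or blue cone replicate 2.

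Bsn and Pclo encode bassoon and piccolo, a pair of giant related proteins of the cytomatrix, of which bassoon anchors the ribbon and piccolo has a short form, piccolino, at ribbon synapses. Bsn (chr9:108096022-108190383, minus strand) had normalized counts of 858, 731 and 999.6 in pan-BC, 938, 1122 and 933 in ON-BC, and 713, 956 and 846 in OFF-BC. It had 353, 354 and 391 in rods and 234, 187 and 192 in blue cones. The populations fell into 3 steps that did not overlap: bipolar cells, then rods, then blue cones. Pan-BC was higher than blue cones by 2.07 (SE 0.14, limma adjusted p = 4.94e-06). The difference from rods was 1.22 (SE 0.14), not called (limma adjusted p = 0.146) and called with libraries scaled by their totals alone (adjusted p = 0.00531). The difference between rods and blue cones of 0.84 (SE 0.14) was not beyond 2-fold and differed from no change (limma adjusted p = 9.38e-05).

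Pclo (chr5:14514918-14863459, plus strand) had normalized counts of 3246, 3000.1 and 3852 in pan-BC, 2627, 2963 and 2170.0 in ON-BC, and 2264, 3352 and 3175 in OFF-BC. It had 1792, 1729 and 1892 in rods and 1591, 1102 and 967 in blue cones. The order of the means was the same as for Bsn in that bipolar cells lay above rods and rods above blue cones, with no overlap between these 3. Pan-BC was higher than blue cones by 1.49 (SE 0.18, limma adjusted p = 0.0216). That call was lost without pan-BC replicate 3 (adjusted p = 0.0937), blue cone replicate 2 (adjusted p = 0.0736) or blue cone replicate 3 (adjusted p = 0.113). The difference from rods was 0.89 (SE 0.18), not beyond 2-fold and at a limma adjusted p of 0.000220 against no change. Neither gene differed between ON-BC and OFF-BC beyond the overlap of their libraries (0.26, SE 0.14, for Bsn and -0.17, SE 0.18, for Pclo).

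At the Bsn promoter, 38 bp upstream of the start, reads were 147 and 111 in pan-BC, 288 and 239 in rods and 212 and 138 in blue cones, and 0 of 4 comparisons were called there. One of 5 Bsn regions, 26200 bp upstream, was called lower in pan-BC (3.20 and 5.70 reads) than in blue cones (75.1 and 89.6 reads), by -3.97 (SE 0.71, limma adjusted p = 0.00159). The same region was called lower in rods than in blue cones (-3.17), so it was not low in bipolar cells alone. That call was lost without rod replicate 1 (-2.65) or either blue cone library (-3.30 and -3.04). Of 10 Pclo regions, 7 were called higher in pan-BC against rods and 6 against blue cones, with 0 lower, where 40.3% and 28.8% of all regions were called higher. The 6 fell to 4 without pan-BC replicate 2. The Pclo promoter region was not called (322 and 423 reads in pan-BC, 380.03 and 328 in rods). A region 29489 bp upstream of Pclo held 34.3 and 43.9 reads in ON-BC and 0 and 1.95 in OFF-BC (4.54, SE 0.70, limma adjusted p = 0.00248). It held 24.0 and 29.1 reads in pan-BC and 3.89 and 2.71 in rods.

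The 3 Rims genes encode RIM proteins, which bind the small GTPase Rab3 on vesicles and tether calcium channels at the active zone; Rims3 encodes only a short carboxy-terminal form. The paralogs went separate ways. Rims1 (chr1:22285972-22806158, minus strand) had normalized counts of 174, 127 and 150.5 in pan-BC, 69.1, 118 and 65.7 in ON-BC, and 123, 244 and 151 in OFF-BC. In rods 1 read was counted over all 3 libraries, giving 0, 1.02 and 0, and in blue cones 6 reads, giving 3.76, 0.759 and 0. The lowest bipolar library, at 65.7, stood far above the highest photoreceptor library, at 3.76. The fitted log2 fold change, which depends on the added count of 1, was 6.89 (SE 0.50, limma adjusted p = 1.11e-08) in pan-BC against rods and 6.21 (SE 0.50, limma adjusted p = 9.67e-08) against blue cones. As a ratio of reads, 413 in pan-BC against 1 in rods gave 441-fold, with a 95% interval of 78.6 to 17443 that covers counting error only. Set as a percentage of its pan-BC mean, Rims1 reached 0, 0.68 and 0% among rod libraries and 2.5, 0.504 and 0% among blue cone libraries, beside 0.491 to 1.4% and 0.844 to 2.15% for Grm6. Whether those reads came from bipolar RNA in the sorts was not tested. ON-BC against OFF-BC gave -1.02 (SE 0.50), not called, and all 3 ON-BC libraries lay below all 3 OFF-BC libraries. That SE takes in the photoreceptor libraries, at 0 to 3.76. The difference was called under 0 of 16 alternatives, among them a fit of ON-BC and OFF-BC alone.

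The 250 bases upstream of the Rims1 start (chr1:22806159-22806408, minus strand, 5′ to 3′ along the gene) and of the Erc1 start (chr6:119848151-119848400, minus strand) are shown because these were the members called in pan-BC against both photoreceptor populations. Neither holds any of the 4 motifs searched, and 68.0% and 76.0% of their bases are G or C, against a median of 52.4% over 32851 RefSeq promoters.
Rims1 promoter: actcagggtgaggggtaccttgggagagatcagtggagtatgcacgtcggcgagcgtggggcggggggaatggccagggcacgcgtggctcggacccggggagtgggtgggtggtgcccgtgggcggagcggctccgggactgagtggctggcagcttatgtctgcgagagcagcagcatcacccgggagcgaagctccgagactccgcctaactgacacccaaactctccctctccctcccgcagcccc
Erc1 promoter: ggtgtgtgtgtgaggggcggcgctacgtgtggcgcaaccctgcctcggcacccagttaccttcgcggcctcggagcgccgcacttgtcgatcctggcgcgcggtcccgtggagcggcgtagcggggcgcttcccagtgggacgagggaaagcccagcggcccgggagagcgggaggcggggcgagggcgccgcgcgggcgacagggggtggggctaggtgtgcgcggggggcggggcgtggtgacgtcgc

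The chromatin of Rims1 differed as the RNA did. The region at its start, centred 4 bp upstream (chr1:22806063-22806262), held 244 and 371 reads in pan-BC, 440.5 and 401 in ON-BC and 241 and 167 in OFF-BC. Rods had 5.45 and 2.71, blue cones 22.0 and 18.8, and green cones 13.1 and 28.2. Pan-BC was higher by 5.95 (SE 0.36, limma adjusted p = 6.14e-09) against rods and by 3.82 (SE 0.36, limma adjusted p = 1.00e-05) against blue cones. All 18 regions nearest to the Rims1 start were called higher in pan-BC against rods, and all 18 higher than in blue cones, where 40.3% and 28.8% of all regions were called higher. With 1 library left out, 17 or 18 of the 18 were called against rods, and against blue cones 16 without pan-BC replicate 2 and 15 without blue cone replicate 2. Regions of 1 gene are not independent of each other.

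Several Rims1 regions had no reads in at least 1 photoreceptor population. The region 44516 bp downstream of the start held 84.8 and 128 reads in pan-BC and 0 in both rod libraries, which makes pan-BC at least 101-fold higher against a floor of 3 reads over the population. The region 234550 bp downstream held 61.6 and 82.1 reads in pan-BC and 0 in all 4 rod and blue cone libraries, at least 67.7-fold and 52.9-fold higher by the same floor. The region 323330 bp downstream separated ON-BC (49.3 and 54.2 reads) from OFF-BC (0 and 2.92 reads) by 4.73 (SE 0.79, limma adjusted p = 0.00389), a call lost without OFF-BC replicate 1 (adjusted p = 0.059), although Rims1 RNA was not higher in ON-BC.

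**Figure D4:**
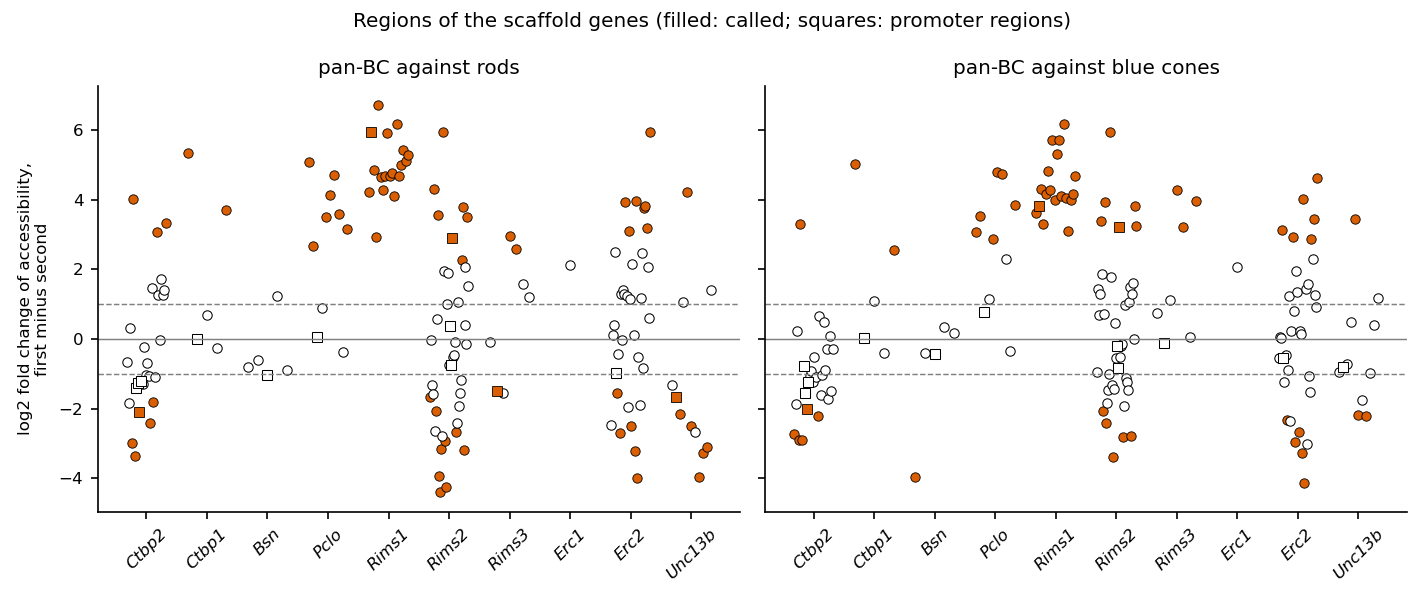
Log2 fold change of accessibility (normalized ATAC-seq reads + 1, first population minus second) of the 157 tested regions nearest to a start of each scaffold gene; squares are promoter regions, filled symbols are called and dashed lines mark 2-fold. All 18 Rims1 regions are filled and above the upper dashed line in both panels, while the regions of Ctbp2, Rims2, Erc2 and Unc13b spread to both sides.

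Rims2 (chr15:39198286-39684372, plus strand) was the most abundant of the 3 and was not reduced in rods. Its normalized counts were 4354, 3755 and 4080.5 in pan-BC, 3019, 3805 and 3086 in ON-BC, and 2961, 3688 and 3025 in OFF-BC. They were 4994, 4009 and 4304 in rods and 2032, 1724 and 1631 in blue cones. Blue cones were the lowest population without overlap, and the other 4 overlapped in turn. Pan-BC against rods gave -0.12 (SE 0.13, limma adjusted p = 1), which turned to 0.23 with libraries scaled by their totals alone. Pan-BC exceeded blue cones by 1.18 (SE 0.13, limma adjusted p = 0.207 against 2-fold and 2.90e-07 against no change) and was called there with libraries scaled by their totals alone (adjusted p = 0.0137). Rods exceeded blue cones by 1.30 (SE 0.13, limma adjusted p = 0.0856 against 2-fold and 1.98e-07 against no change), which edgeR called (adjusted p = 0.03) and limma called without blue cone replicate 1 (adjusted p = 0.0301). ON-BC against OFF-BC gave 0.03 (SE 0.13), which fell to -0.02 without OFF-BC replicate 1, -0.0085 without OFF-BC replicate 3 and -0.07 without ON-BC replicate 2.

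Rims2 chromatin moved in both directions: of 40 regions tested, 7 were called higher and 9 lower in pan-BC against rods, and 6 and 5 in pan-BC against blue cones, against 40.3% and 11.2%, and 28.8% and 7.13%, of all regions. Without pan-BC replicate 2 the higher calls fell to 4 and 2, and without blue cone replicate 2 the 6 fell to 3. The 9 lower calls fell to 6 without pan-BC replicate 1, and the 5 fell to 3 without either pan-BC library or blue cone replicate 1. Both promoter regions of the long transcripts, 864 and 231 bp upstream of the start, were not called, with 64.8 and 53.6 reads in pan-BC and 93.5 and 108 in rods at the nearer one. At an internal start at position 39659511, which RefSeq gives to a transcript of 6 exons, the region 15 bp upstream (chr15:39659397-39659596) held 96.0 and 193 reads in pan-BC, 18.7 and 16.3 in rods and 23.3 and 7.95 in blue cones. It was called higher in pan-BC by 2.89 (SE 0.46, limma adjusted p = 0.000994) against rods and by 3.22 (SE 0.46, limma adjusted p = 0.000524) against blue cones. A region 41703 bp upstream of the main start held 60.01 and 62.1 reads in pan-BC and 0 in all rod and blue cone libraries, at least 56.4-fold and 44.0-fold higher against the same floor. In the other direction, a region 25257 bp upstream of its nearest Rims2 start was called lower in pan-BC. By the same floor it was at least 18.9-fold below rods and 9.29-fold below blue cones. Both calls were lost with a pseudocount of 8 (limma adjusted p = 0.0819 and 0.693). The call against blue cones was also lost without either pan-BC library or blue cone replicate 1. In rods against blue cones, a region 204718 bp upstream of the internal start held 70.9 and 67.1 reads in rods and 0 and 8.67 in blue cones (4.49, SE 0.85, limma adjusted p = 0.00628). That call was lost without rod replicate 1 (4.45) or blue cone replicate 1 (2.85).

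Rims3 (chr4:120854799-120896575, plus strand) was near the detection limit, with 15 to 49 reads in all over the 3 libraries of a population. Its normalized counts were 13.8, 14.1 and 4.89 in pan-BC, 9.29, 1.96 and 5.13 in ON-BC, and 20.1, 16.8 and 15.4 in OFF-BC. They were 16.5, 20.5 and 13.0 in rods and 3.01, 2.28 and 5.92 in blue cones. The 3 rod and the 3 OFF-BC libraries lay above the 3 ON-BC and the 3 blue cone libraries. OFF-BC exceeded ON-BC, written as -1.68 for ON-BC against OFF-BC (SE 0.51), which was not beyond 2-fold (limma adjusted p = 0.892) and differed from no change (0.0209). Rods exceeded blue cones by 1.95 (SE 0.51, limma adjusted p = 0.206), which edgeR called (adjusted p = 0.0494). Its promoter region held 120.02 and 109 reads in pan-BC, 350.4 and 300.2 in rods and 117 and 133 in blue cones. Pan-BC was lower there than rods by -1.50 (SE 0.20, limma adjusted p = 0.0268), a call lost without pan-BC replicate 2 (adjusted p = 0.0996) or rod replicate 1 (adjusted p = 0.154). A region 3645 bp downstream was called higher in rods (119 and 113 reads) than in blue cones (25.9 and 11.6 reads) by 2.67 (SE 0.40, limma adjusted p = 0.00503), and was not called without blue cone replicate 2 (adjusted p = 0.101).

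Erc1 and Erc2 encode the ELKS and CAST proteins, coiled-coil scaffolds that bind RIM, bassoon and piccolo at the active zone; ELKS is also made outside neurons. Erc1 (chr6:119570796-119848150, minus strand) was even across bipolar cells, with normalized counts of 475, 418 and 508 in pan-BC, 468, 462 and 457 in ON-BC, and 436, 555 and 457 in OFF-BC. It had 3.88, 0 and 6.48 in rods, from 10 reads in all, and 15.04, 31.9 and 11.1 in blue cones, from 77 reads. No photoreceptor library exceeded 31.9 and no bipolar library fell below 418. Pan-BC was higher by 7.14 (SE 0.52, limma adjusted p = 1.10e-08) against rods and by 4.65 (SE 0.52, limma adjusted p = 9.52e-06) against blue cones. Rods were called lower than blue cones by -2.48 (SE 0.52, limma adjusted p = 0.0381), and this call was lost without rod replicate 2 (-1.62, adjusted p = 0.214), blue cone replicate 1 (adjusted p = 0.0503) or blue cone replicate 2 (adjusted p = 0.192). As a percentage of its pan-BC mean, Erc1 was at 3.22, 6.83 and 2.38% in the blue cone libraries and Grm6 at 0.844, 1.6 and 2.15%, so the 2 did not peak in the same library. The part of bipolar RNA in the Erc1 reads of photoreceptors was not tested. ON-BC against OFF-BC gave -0.05 (SE 0.52), which turned to 0.05 without OFF-BC replicate 2. That SE takes in the photoreceptor libraries, at 0 to 31.9. The ON-BC and OFF-BC libraries themselves lay between 436 and 555.

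Erc2 (chr14:27622407-28478537, plus strand) was the member that differed most clearly between ON-BC and OFF-BC. Its normalized counts were 720.1, 686 and 806 in pan-BC, 348, 409.6 and 334 in ON-BC, and 954, 1264 and 852 in OFF-BC. They were 585, 602 and 658 in rods and 350.5, 243 and 291 in blue cones. OFF-BC was the highest population without overlap, followed by pan-BC and rods, each apart from the next, and ON-BC and blue cones overlapped at the bottom. ON-BC was below OFF-BC by -1.47 (SE 0.16), just short of the call beyond 2-fold (limma adjusted p = 0.0579) and different from no change (1.88e-06). In a fit of ON-BC and OFF-BC alone it was called with the replicate number as a block (limma adjusted p = 0.041) and not without it (limma adjusted p = 0.118). It was called by edgeR (adjusted p = 0.0128), and by limma without ON-BC replicate 2 (adjusted p = 0.0443) or without OFF-BC replicate 3 (-1.60, adjusted p = 0.024), the library with the most Opn1sw. Pan-BC exceeded blue cones by 1.33 (SE 0.16, limma adjusted p = 0.0657), which was called by edgeR (adjusted p = 0.0476), with scaling by totals alone (adjusted p = 0.00561) and without blue cone replicate 1 (adjusted p = 0.0168). Pan-BC and rods differed by 0.26 (SE 0.16, limma adjusted p = 1).

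The Erc2 promoter region, 46 bp upstream of the start, was not called in any comparison, with 439 and 404 reads in ON-BC, against 409.5 and 344 for OFF-BC and 653 and 618 for rods. Within the gene, 2 regions of 34 were called lower and 2 higher in ON-BC than in OFF-BC, where 2.8% and 4.58% of all regions were, and without OFF-BC replicate 1 these fell to 0 and 1. The region 164022 bp downstream of the start held 2.99 and 0 reads in ON-BC, whereas OFF-BC had 47.2 and 19.5, rods 101 and 128, and blue cones 105 and 155. It was lower in ON-BC than in OFF-BC by -3.97 (SE 0.60, limma adjusted p = 0.00283), a call lost without OFF-BC replicate 1 (adjusted p = 0.0679), and lower in pan-BC than in rods by -3.99 (SE 0.60, limma adjusted p = 0.000205). The region 122743 bp downstream had the same order, with 0 and 0 reads in ON-BC, against 20.2 and 7.79 for OFF-BC and 23.4 and 33.9 for rods, which makes OFF-BC at least 5.86-fold higher against the floor of 3 reads, and its call (limma adjusted p = 0.00808) was lost without OFF-BC replicate 1 (adjusted p = 0.114) and in a fit of ON-BC and OFF-BC alone, with the replicate number as a block (limma adjusted p = 0.0848) or without it (limma adjusted p = 0.103). The reverse held 132158 bp downstream, with 37.3 and 17.6 reads in ON-BC, against 0 and 1.95 for OFF-BC and 1.56 and 1.36 for rods (3.96, SE 0.68, limma adjusted p = 0.00649). That call was lost without OFF-BC replicate 1 (3.18) or ON-BC replicate 1 (3.435), and by DESeq2 (adjusted p = 0.0601). A fit of ON-BC and OFF-BC alone, without the replicate number as a block, did not call it either (limma adjusted p = 0.0904). The regions 83940 and 188563 bp downstream were called lower in rods than in blue cones, at 0 and 0 reads against 10.4 and 15.2, and at 0 and 2.71 against 18.1 and 24.6, and both calls were lost without rod replicate 1 or either blue cone library. Erc1 had no promoter region and 1 region nearest to its start, 55385 bp downstream. That region was not called in any comparison, at 2.12 in pan-BC against rods and 2.06 in pan-BC against blue cones. The Erc1 gene body held 8 regions, and those nearest to the starts of other genes were not examined here.

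Unc13b (chr4:43058953-43264873, plus strand) encodes Munc13-2, one of the priming factors that make docked vesicles ready to fuse. Its normalized counts were 2475, 2320.2 and 2612 in pan-BC, 3322, 3232 and 2585 in ON-BC, and 1733, 2149 and 1835 in OFF-BC. They were 2966, 2751 and 3211 in rods and 2529, 1858 and 1849 in blue cones. ON-BC and rods were the highest populations and overlapped, and blue cones and OFF-BC overlapped at the bottom. ON-BC exceeded OFF-BC by 0.67 (SE 0.13), not beyond 2-fold (limma adjusted p = 1) and at a limma adjusted p of 0.00107 against no change, and all 3 ON-BC libraries lay above all 3 OFF-BC libraries. Unc13b and Erc2 thus differed in opposite directions between ON-BC and OFF-BC. Pan-BC against rods gave -0.27 (SE 0.13), which turned to 0.08 with libraries scaled by their totals alone, and pan-BC against blue cones gave 0.26 (SE 0.13).

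Accessibility at Unc13b was higher in rods. The promoter region, 66 bp upstream of the start (chr4:43058788-43058987), held 324 and 293 reads in pan-BC, against 339 and 328 for ON-BC, 313 and 313 for OFF-BC, 1008 and 949 for rods and 505 and 576 for blue cones. Pan-BC was lower than rods by -1.66 (SE 0.13, limma adjusted p = 0.000225) and not called against blue cones (-0.81, SE 0.13). Of 11 regions, 1 was called higher and 6 lower in pan-BC against rods, and 1 and 2 in pan-BC against blue cones, against 40.3% and 11.2%, and 28.8% and 7.13%, of all regions. The 6 fell to 3 without pan-BC replicate 2, and the 2 to 0 without pan-BC replicate 2 or blue cone replicate 2. A region 9481 bp downstream held 1.49 and 1.46 reads in ON-BC, against 31.0 and 27.3 for OFF-BC, 53.7 and 54.9 for rods and 36.3 and 52.03 for blue cones. It was lower in ON-BC than in OFF-BC by -3.60 (SE 0.50, limma adjusted p = 0.00192), although Unc13b RNA was higher in ON-BC. DESeq2 did not call this region (adjusted p = 0.0726). Nor did a fit of ON-BC and OFF-BC alone, without the replicate number as a block (limma adjusted p = 0.0673).

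Over all members, 47 of 157 regions (29.9%) were called higher and 26 (16.6%) lower in pan-BC than in rods, against the 40.3% and 11.2% of all regions. In pan-BC against blue cones the counts were 43 (27.4%) and 18 (11.5%), against 28.8% and 7.13%. In ON-BC against OFF-BC they were 5 (3.18%) in each direction, against 4.58% and 2.8% of all regions. In rods against blue cones they were 2 (1.27%) higher and 8 (5.10%) lower, against 1.46% and 8.56%. Higher calls were thus a smaller share than the background in pan-BC against rods, and lower calls a larger share in both comparisons of pan-BC with photoreceptors, differences that were not tested. The median log2 fold change of the member regions was 0.40, 0.23, 0.02 and 0.00062 in the 4 comparisons, and that of all regions 1.16, 0.54, 0.15 and -0.20. With regions at 0 reads in a population set at their bound, the member medians were 0.40, 0.23, 0.06 and 0.02. The direction of the ON-BC against OFF-BC median of all regions turned to -0.14 with scaling by library totals and to -0.07 with TMM scaling, and the share of higher calls there moved from 62.1% to 47.6% and 51.6%.

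Per kilobase of transcript, taken as the combined exon length of the RefSeq transcripts of a gene, Ctbp2 was the most abundant member in all 5 populations and Rims2 the second. Which transcripts each population used is not known, so the order of genes depends on these lengths. A shorter form in use, such as piccolino, would give Pclo (22100 bases here) a higher level. In pan-BC the mean was 1858 normalized counts per kb for Ctbp2 (SD 89.1, n = 3) and 512 for Rims2 (SD 37.8, n = 3), followed by Ctbp1 (325), Unc13b (170.4), Pclo (152), Erc2 (118), Bsn (54.2), Erc1 (47.4), Rims1 (21.2) and Rims3 (1.68). Among these neighbours, the libraries of Unc13b and Pclo overlapped and so did those of Bsn and Erc1. In rods the first ranks were Ctbp2 (1174 per kb), Rims2 (559), Unc13b (205) and Erc2 (98.3), and Erc1 (0.351) and Rims1 (0.048) came last and overlapped. In blue cones Ctbp2 was at 2198 per kb against 226 for Rims2, and Rims3 (0.573) and Rims1 (0.212) came last and overlapped. In ON-BC the libraries of Rims2 (416 per kb) and Ctbp1 (405) overlapped, and in OFF-BC those of Ctbp1 (282) and Erc2 (164). The length of Unc13b is set by 1 RefSeq transcript of 14457 bases. With its next longest transcript of 6408 bases, a length tried after the data were seen, its level would be 385 per kb in pan-BC, 297 in OFF-BC and 464 in rods, below Rims2. At that length it would be 475 in ON-BC and 324 in blue cones, above Rims2 in both, so that the second rank of Rims2 in these 2 populations rests on the longer transcript.

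**Figure D5:**
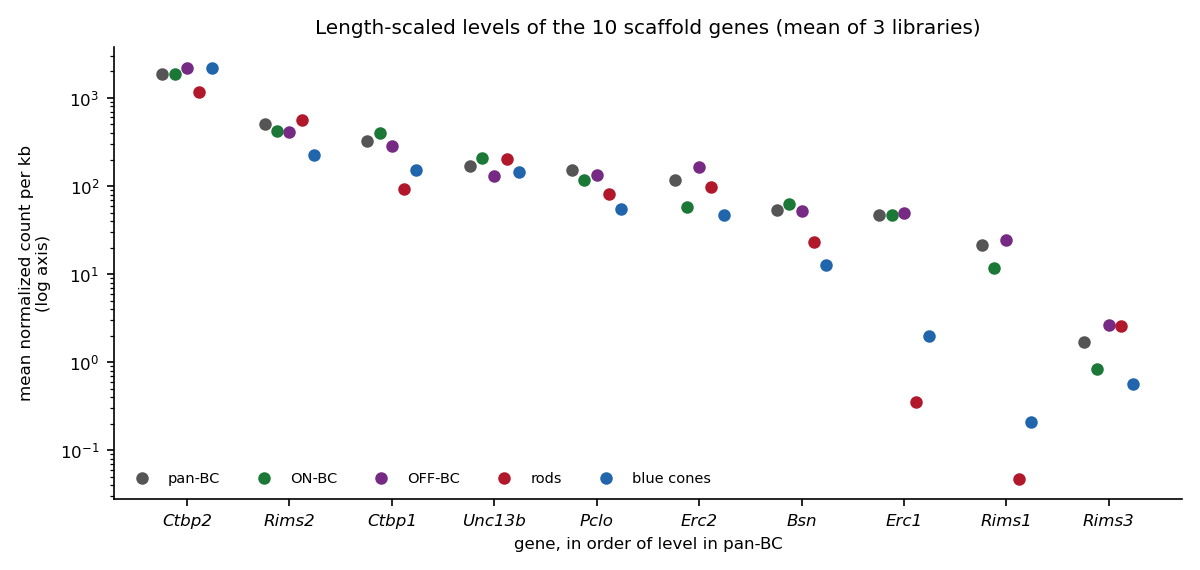
Mean normalized count per kb of transcript (log axis, 3 libraries a population) of the 10 scaffold genes, ordered by their level in pan-BC. Ctbp2 is first in every population, and the points of Erc1 and Rims1 for rods and blue cones fall far below those of the 3 bipolar populations.

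Of the other active zone genes, a list of 27 was set beside the members, of which 26 were in the table and 25 were tested. In pan-BC against rods 14 of the 25 were called higher and 2 lower, in pan-BC against blue cones 8 and 4, in ON-BC against OFF-BC 2 and 0, and in rods against blue cones 0 and 6. The shares of all genes are those given above for each comparison. The medians were 1.61, 1.13, 0.20 and -0.63, against 0.21, 0.16, -0.015 and -0.0047 for all genes. Among the 8 genes called higher in pan-BC than in both photoreceptor populations, the 4 with the highest mean change were Lin7a, Rimbp2, Unc13c and Apba2. Both genes called lower in the same way were Unc119 and Lin7c.

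Rimbp2, which links RIM to calcium channels, had 139, 133 and 162 normalized counts in pan-BC and 1 read in all in rods, and likewise 1 read in blue cones. As a ratio of reads pan-BC exceeded rods 421-fold (95% interval 75.2 to 16685, counting error only) and blue cones 575-fold (103 to 22751). Unc13c, which encodes Munc13-3, had 2336, 2270 and 2551 in pan-BC, 2.91, 24.6 and 31.3 in rods and 33.1, 43.3 and 87.3 in blue cones. It was higher in pan-BC by 7.33 (SE 0.54, limma adjusted p = 1.12e-08) against rods and by 5.54 (SE 0.54, limma adjusted p = 1.17e-06) against blue cones. The Munc13 genes thus divided, since Unc13b was not called in either comparison. Apba2, which encodes the Munc18-binding adaptor Mint2, had 1230, 1077 and 1220 in pan-BC against 6.79, 4.10 and 17.3 in rods and 34.6, 38.7 and 88.8 in blue cones, with log2 fold changes of 7.03 (SE 0.37, limma adjusted p = 1.34e-10) and 4.55 (SE 0.37, limma adjusted p = 2.16e-07). In blue cones these levels are 1.39 to 3.66% of the pan-BC mean for Unc13c and 2.94 to 7.56% for Apba2, beside 0.844 to 2.15% for Grm6, and the part of bipolar RNA in them was not tested.

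Lin7a and Lin7c encode small PDZ proteins that join CASK and Mint adaptors, and they moved in opposite directions. Lin7a had 13367, 11809 and 12257 normalized counts in pan-BC, 16127, 17068 and 15952 in ON-BC, and 285, 159.8 and 836 in OFF-BC. It had 37.8, 63.5 and 83.2 in rods and 76.0, 72.8 and 169 in blue cones. It was higher in pan-BC by 7.71 (SE 0.44, limma adjusted p = 3.42e-10) against rods and by 6.98 (SE 0.44, limma adjusted p = 3.40e-09) against blue cones, and higher in ON-BC than in OFF-BC by 5.60 (SE 0.44, limma adjusted p = 9.26e-07). In the 3 OFF-BC libraries Lin7a was at 1.74, 0.975 and 5.11% of its ON-BC mean, beside 1.08, 0.481 and 4.39% for the ON-BC receptor gene Grm6, and the part of ON-BC RNA in these values was not tested. Lin7c had 2365, 2238 and 2311 in pan-BC, 6154, 8278 and 7291 in rods and 7353, 7065 and 7126 in blue cones, and was lower in pan-BC by -1.64 (SE 0.11) against each (limma adjusted p = 3.66e-05 and 5.23e-05). Unc119, a lipid-binding carrier that was found in photoreceptors and binds RIBEYE, had 5219, 5336 and 5407 in pan-BC, 26685, 25438 and 26225 in rods and 17507, 22417 and 33833 in blue cones, and was lower in pan-BC by -2.29 (SE 0.17, limma adjusted p = 3.21e-06) and -2.15 (SE 0.17, limma adjusted p = 1.73e-05). The second gene higher in ON-BC, the liprin-beta gene Ppfibp2, had 31.0, 19.6 and 31.8 in ON-BC and 1.12, 3.60 and 1.10 in OFF-BC (3.35, SE 0.70, limma adjusted p = 0.0318), and this call was lost without replicate 1 or 3 of either population (adjusted p = 0.105 to 0.121).

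Across the 15 libraries, which fall into 5 populations, the genes most like Ctbp2 by Pearson correlation of log2(normalized count + 1) were 4833417C18Rik (0.973), Fuca2 (0.969) and 1600014C10Rik (0.969). They shared its low rod level, as with Fuca2 at a mean of 444 normalized counts for rods and 1560 for blue cones. Those most like Bsn were Spire1 (0.987), Gm15713 (0.986) and Zfp839 (0.9855), and those most like Pclo were Bptf (0.970), Kcnq1ot1 (0.960) and Stxbp5l (0.959). By Spearman correlation 0 of these 3 names recurred for any of the 3 genes, so the names depend on the measure. Between members, the highest correlations were 0.932 for Rims1 with Erc1 and 0.926 for Bsn with Pclo. These coefficients are descriptions over libraries that share their populations and size factors.

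Of the 4 motifs searched on both strands, TAATCC is the K50 homeodomain motif bound by CRX and OTX2, TAATTA a Q50 homeodomain motif that reads the same on both strands, CAGCTG an E-box that also does so, and CAGATG another E-box. In the 250 bases upstream of a start, TAATCC was found in 6.25% of RefSeq promoters, TAATTA in 4.84%, CAGCTG in 13.0% and CAGATG in 14.4%. Of the 10 member promoters with sequence, 2 held TAATCC (the RIBEYE promoter and Rims3, 36 bases upstream), 0 TAATTA, 1 CAGCTG (Ctbp1, at 168 and 90 bases upstream) and 2 CAGATG (Pclo at 119 and Rims3 at 58 bases upstream). Rims2 was not among the promoters. In the 158 open regions nearest to members TAATCC was found in 29.7%, TAATTA in 3.16%, CAGCTG in 19.6% and CAGATG in 20.3%, against 21.8%, 5.2%, 18.0% and 22.3% of all 110715 regions of the same length. A match is a description of the letters in the window and says nothing of binding.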

How the data were processed

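RNA-seq and ATAC-seq libraries were grouped by the population in their labels. Per the labels and the study's methods, the authors aligned single-end 50 bp RNA reads with STAR 2.7.0d to GRCm38/mm10 and counted them per RefSeq gene with HTSeq. Whether the counting used strand is not given in the sources used here. The authors aligned ATAC-seq reads with Bowtie2 2.2.5, removed fragments over 150 bp and counted reads in 200 bp regions around MACS2 2.1.1 peaks merged over libraries. The deposited tables hold signal values, which are counts that the authors divided by 1 size factor per library. Dividing by the step of each library gave whole reads, within 0.01 read, for 100% of 230384 RNA and 1212862 ATAC values above 0. There were 0 value columns without a sample. Peak lists were not used, since the region table holds counts in every library compared.

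From these values, log2(value + 1) was fitted in limma 3.58.1 (R 4.3.3) over all 15 RNA-seq or 12 ATAC-seq libraries, with features kept by filterByExpr of edgeR 4.0.16 (14024 of 24062 genes and 108448 of 110715 regions), a mean-variance trend, a test against a 2-fold difference (treat) and Benjamini-Hochberg adjustment within each comparison. On the recovered reads, edgeR's glmTreat and DESeq2 1.42.0 were alternatives; edgeR called 6728 genes in pan-BC against rods, 5777 in pan-BC against blue cones, 1226 in ON-BC against OFF-BC and 2739 in rods against blue cones. The scripts were tested on simulated data. Replicates of a population differed by 7.11 to 70.0 (RNA) and 2.33 to 4.46 (ATAC) in chi-square per feature, and none was treated as a repeat of another.

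Each region was given to the gene with the nearest RefSeq start (GRCm38.p6). A promoter region is centred at most 1000 bp before or 100 bp after a start. Region starts were read as zero-based, which could shift coordinates by 1 base. The named genes were all 10 members and, among the other active zone genes, up to 4 per direction called the same way against both photoreceptor populations and up to 3 per direction called between ON-BC and OFF-BC. The named regions were those nearest each Ctbp2 start, promoter regions and up to 3 called regions per direction and comparison. Members and lists were chosen with earlier results of these data known. Other scalings, pseudocounts, filters, sample sets and each library left out were tried as alternatives. The 95% intervals of read ratios and the floor of 3 reads cover counting error only. Some marker genes are not reported here.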

Additional observations from a re-analysis of the deposited data

How the results depend on the processing

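Of 400 member fold changes under alternatives other than leaving out a library, 365 kept their direction and their call, 4 lost a call, 28 gained one and 3 turned. Most of the 28 gains came from the test against no change, which is less strict than the test against 2-fold. The remaining gains came from other scalings, edgeR or the replicate block. With libraries scaled by their totals alone, pan-BC against blue cones turned to 0.0393 for Ctbp2, and pan-BC against rods to 0.23 for Rims2 and 0.0806 for Unc13b. With 1 library left out, ON-BC against OFF-BC ran from -0.0718 to 0.135 for Rims2 and from -0.124 to 0.0505 for Erc1. The cause was not tested.

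Against no change in place of 2-fold, 6, 9, 4 and 9 members were called in pan-BC against rods, pan-BC against blue cones, ON-BC against OFF-BC and rods against blue cones, where 79.5%, 76.3%, 27% and 57.5% of all genes were. The other active zone genes called were then 22, 8 and 15 in the last 3 of these, and the member regions called 116, 100, 36 and 41 of 157 in all 4, where 73%, 61%, 24.4% and 34.6% of all regions were. edgeR called 1 member in ON-BC against OFF-BC and 3 in rods against blue cones, where it called 8.74% and 19.5% of all genes. It called 20 and 17 member regions in these comparisons, where it called 11.9% and 17.6% of all regions. DESeq2 called 6 member regions in each of these comparisons, where it called 4.6% and 7.58% of all regions. In rods against blue cones 0 members were called with the compared populations only, with no low-value filter and with a pseudocount of 8, which left 4 regions. Of all genes, these fits called 1857 of 14024, 2273 of 18938 and 1926 of 14024, and the last called 5962 of all 108448 regions. With the compared populations only, which leaves fewer samples, 3 other active zone genes and 0 regions were called there. That fit called 0 of all 108448 regions, so its 0 is not particular to the member regions. In ON-BC against OFF-BC the compared populations alone gave 4 member regions, where 3894 of all 108448 regions were called. A pseudocount of 0.5 left 1 of the other active zone genes in ON-BC against OFF-BC, where it called 874 of all 14024 genes.

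Leaving out 1 library gave 0 to 1 members called in each of ON-BC against OFF-BC and rods against blue cones, 1 to 2 other active zone genes in the former, and 3 to 10 and 4 to 6 regions in the 2 comparisons. An ATAC-seq population left with 1 library was assumed to vary like the others.

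With the replicate number as a block, in a fit of the compared populations only, 1 member was called in ON-BC against OFF-BC (Erc2, limma adjusted p = 0.041) and 0 in rods against blue cones, with 3 other active zone genes and 0 regions in the latter. The same fit called 945 and 1633 of all 14024 genes in these 2 comparisons, and 0 of all 108448 regions in the latter. Deviations of same-numbered RNA-seq libraries of ON-BC and OFF-BC correlated at -0.0763, 0.222 and -0.0649, which does not show a pairing. Same-numbered ON-BC and OFF-BC libraries have the same mouse age in the labels, which do not say whether they came from the same mice.

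Depth limited Rims3 in all populations, Rims1 and Erc1 in photoreceptors, and the regions with few reads. Of 510 fold changes of all named regions, 51 lost a call under an alternative, and of 204, 50 did without 1 library. With 2 or 3 libraries a population, a difference that was not called is not shown to be absent.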
